A study of Homo sapiens with 34 samples.

Results

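The genes described here carry names of the zinc finger families ZNF, ZFP, ZSCAN, ZKSCAN and ZBTB, and they were taken from 3 lists of m6Am peaks of HEK293T cells. A line of a list was a member when its gene name began with 1 of these prefixes and a digit. This rule found 60 of the 2116 lines, with 51 distinct names. The list of wild-type cells under standard culture (the baseline list) held 44 members among 1652 spans. The heat shock list held 2 among 74, and the hypoxia list held 14 among 390. A span is the stretch of genome from the first to the last base of a listed peak, introns included.

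HEK293T is a human embryonic kidney line. In m6Am-seq, capped RNA fragments are enriched with an m7G antibody, 1 portion is treated with the demethylase FTO, and the FTO (+) and FTO (−) portions are enriched with an m6A antibody, so that peaks lost after FTO mark m6Am. The baseline list came from wild-type cells without stress. For heat shock, cells were incubated for 2 h at 43 °C with 6 h of recovery, and for hypoxia they were cultured for 24 h in 1% oxygen. The stress lists hold spans that the authors selected by comparing stressed with untreated cells. Those untreated cells were a separate set of libraries from the wild-type ones behind the baseline list. All cells of the 3 lists carried PCIF1. Each list is 1 set of spans with no read count, no strand and no replicate. No test could be made between replicates, the depth behind a span is unknown, and the intervals given are 95% Wilson intervals that cover counting error only.

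m6Am is a methylated adenosine that sits next to the m7G cap when transcription starts with A, and PCIF1 is the enzyme that writes it. C2H2 zinc finger proteins bind DNA through arrays of fingers and make up the largest family of human transcription factors. Many members with a KRAB domain recruit the corepressor TRIM28 and silence transposable elements and genes. The SCAN domain joins zinc finger proteins into dimers, and the BTB domain binds other proteins, among them corepressors. Many KRAB genes lie in tandem clusters on chromosome 19.

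By class, the 42 names of the baseline list were 15 KRAB genes, 3 SCAN genes (ZSCAN16, ZSCAN21, ZSCAN22), ZKSCAN1 with both domains, 2 BTB genes (ZBTB11, ZBTB37), 17 other C2H2 genes and 4 names that only match the pattern. Those 4 were ZBTB8OS, ZFP36L2, ZFP91-CNTF and ZNF767P. ZBTB8OS encodes archease, a cofactor of tRNA ligation, and is named for its place opposite a BTB gene. ZFP36L2 is a CCCH zinc finger protein that binds AU-rich mRNA. ZFP91-CNTF is a readthrough transcript, and ZNF767P is a pseudogene. The lists hold no measure of repression, so the word repressor rests on the class. It is background for the 15 KRAB genes and ZKSCAN1, and it is least sure for ZNF212 and ZKSCAN1, whose KRAB domains are divergent. It does not apply to the 4 names that only match the pattern.

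The first sequences shown are those of the chromosome 19 KRAB genes, because this is the group that the name of the family rests on. Each line gives 30 bases of the GRCh37 genome around the annotated transcription start site (TSS) nearest the 5′ end of the listed span, on the strand of the gene. The capitals mark the TSS base and the 2 bases before it. The first 11 genes were in the baseline list (ZNF611 also in the hypoxia list), and the last 3 were in the hypoxia list only.
ZNF567, chr19:37178499-37178528 (+): ggagtgcgcatgcGCAgacgcccggccggc
ZNF790, chr19:37341155-37341184 (−): cgtagtccaagccTCGccggggatagatgg
ZNF649, chr19:52408279-52408308 (−): ctcgaagagaagcCCAtgtcccatcgtcct
ZNF432, chr19:52552077-52552106 (−): aaaagccggaaggCCGcattccgctctcca
ZNF616, chr19:52643177-52643206 (−): ctagcagtttccgTCActcccggaagcaga
ZNF480, chr19:52800407-52800436 (+): ctccgctgcgcgcGCAgtttcccacaaacc
ZNF611, chr19:53238293-53238322 (−): ttgtcctgcgcgcGCAgattaacgcaaacc
ZNF468, chr19:53360888-53360917 (−): gctccacccaggcCTGgtttctgtcctgcg
ZNF160, chr19:53606673-53606702 (−): gtcgctttccttcGCGcagttgcccacaga
ZNF761, chr19:53935222-53935251 (+): cgcgcagattcgtGCAgaccaggaagcgga
ZNF584, chr19:58920001-58920030 (+): gcgccctcccttaTCGccttggcaacgacc
ZNF566, chr19:36980449-36980478 (−): ttcagcttccaacTCAcgcgctggcgggac
ZNF749, chr19:57946678-57946707 (+): aattgtgtgggcgGGActtctggcggcgcc
ZNF791, chr19:12721717-12721746 (+): gtacggctacgctGCGcaaatgcgtgctac

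In 6 of the 11 baseline genes the annotated start was A, and in each of those 6 it followed C with C, G or T before it (GCA in ZNF567, ZNF480, ZNF611 and ZNF761, CCA in ZNF649, TCA in ZNF616). The other 5 starts were G. A start read from the annotation is not a measured cap position. The series includes a CAGE library, which maps the starts of capped RNA, but it was not used here. The paper placed most of its m6Am sites downstream of RefSeq-annotated starts. ZNF480 and ZNF611 shared the letters GCGCGCAG across the start.

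The second set holds the other names that appeared in more than 1 list, with ZFP91 and ZFP91-CNTF, which named the same span in different lists.
ZNF142, chr2:219524332-219524361 (−): cccacagagaagcCCAcgccactctacccc
ZBTB11, chr3:101395965-101395994 (−): tgcagcagccattTTGtcagtcgccagcgg
ZNF48, chr16:30389620-30389649 (+): ggagaacctccccCTAgcccgcgcgagggc
ZSCAN16, chr6:28092372-28092401 (+): ccgattggtgtctTTGagtctagtctttgt
ZBTB8OS, chr1:33116152-33116181 (−): gccgaagtccggtGGAtgaagggcggaagt
ZNF767P, chr7:149321829-149321858 (−): gatacagtgcggaCCGgccgggcgctaaag
ZFP91-CNTF, chr11:58346630-58346659 (+): agaggagcgcaggGTGagagtgagccgcag
ZFP91, chr11:58346521-58346550 (+): gcccgctgagcgtCTGtggcgcgcgcgcgc

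Of these 8 starts, that of ZNF142 was A after CC, those of ZNF48 and ZBTB8OS were A after CT and GG, and the other 5 were G. In ZNF48, ZSCAN16 and ZFP91 the start lay away from the span's 5′ end, as described with the stress lists. The ZBTB11 start lay 492 bp from the 5′ end of the longer baseline span, 283 bp from that of the heat shock span and 9 bp from that of the shorter baseline span. For ZFP91-CNTF the distance was 58 bp, for ZNF767P 38 bp, for ZBTB8OS 25 bp and for ZNF142 9 bp, the same in both lists for the last 3.

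Chromosome 19 held 16 of the 44 baseline member spans, which is 36.4% (23.8 to 51.1). The same chromosome held 6.05% of all 1652 spans and 43.4% (39.5 to 47.4) of the 608 annotated protein-coding genes whose symbol matches the rule. The share of members on chromosome 19 was thus far above the share of all spans, and its interval held the share of the annotated family. Members were 16 of the 100 baseline spans on chromosome 19. The next chromosome by number of members was chromosome 7 with 6 of 88 spans, where 39 zinc finger genes are annotated, followed by chromosomes 1, 2 and 3 with 3 each. No member lay on chromosome 5, 8, 12, 13, 17, 20, 21 or 22, which hold 14, 20, 14, 0, 14, 11, 1 and 4 annotated zinc finger genes.

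**Figure D1:**
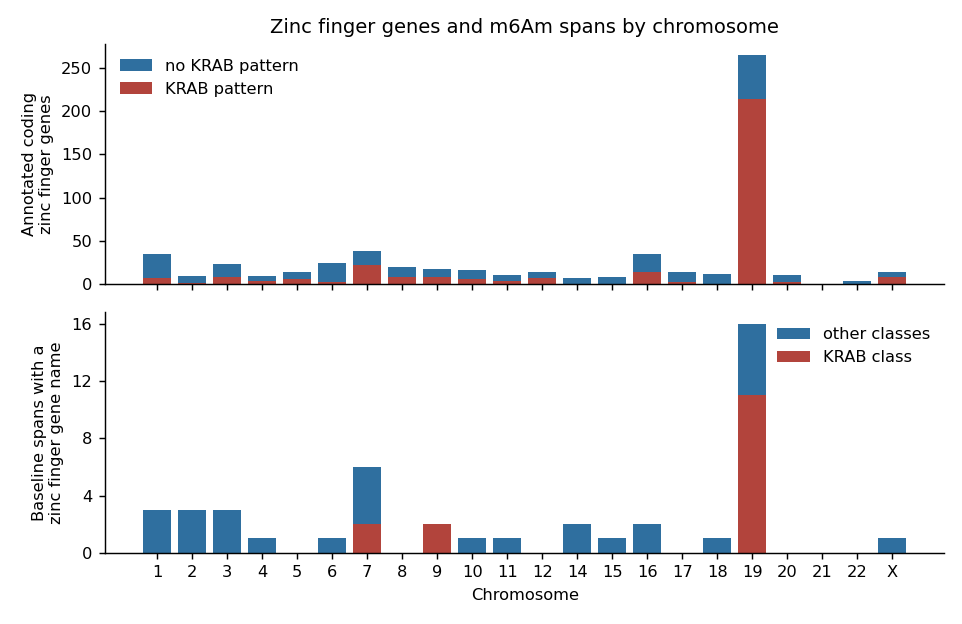
Number of annotated protein-coding zinc finger genes (top) and of baseline spans with a zinc finger gene name (bottom) by chromosome, with KRAB genes in red and the others in blue. Chromosome 19 holds 264 of the 608 annotated genes and 16 of the 44 spans. A KRAB gene is one whose protein matches the pattern (top) or that has the KRAB class (bottom).

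Measured against the annotated family, 15 of 264 coding zinc finger genes on chromosome 19 had a baseline span under their name, which is 5.68% (3.47 to 9.16). Elsewhere it was 26 of 344, or 7.56% (5.21 to 10.8). Of all coding genes, 90 of 1480 on chromosome 19 (6.08%) and 1349 of 18675 elsewhere (7.22%) had one. The 4 intervals overlapped, so a difference between the chromosome 19 family, the rest of the family and other genes was not detectable from these counts.

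The family was then divided by a KRAB pattern of 19 places in the translated protein, of which at least 11 had to match. On chromosome 19, 11 of 214 KRAB-pattern genes (5.14%, 2.89 to 8.97) and 4 of 50 others (8.00%, 3.16 to 18.8) had a baseline span. Elsewhere it was 3 of 117 (2.56%, 0.876 to 7.27) against 23 of 227 (10.1%, 6.85 to 14.7). Over the genome, 4.23% (2.54 to 6.97) of the 331 KRAB-pattern genes and 9.75% (6.79 to 13.8) of the 277 others were listed, with 7.14% of all coding genes between them. These 2 intervals met only at their edges, and the split follows the pattern alone. The listed genes without the pattern included ZNF212 and ZKSCAN1, which were classed above as having a KRAB domain. They also included ZBTB8OS, ZFP36L2 and ZFP91-CNTF, which only match the name rule. Whether the gap would remain with these genes moved or left out was not tested. The lists give no level of RNA, so the share among expressed genes is not known. The ZSCAN and ZKSCAN genes were listed in 4 of 29 cases and the genes with ZBTB names in 3 of 42, ZBTB8OS among the 3.

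**Figure D2:**
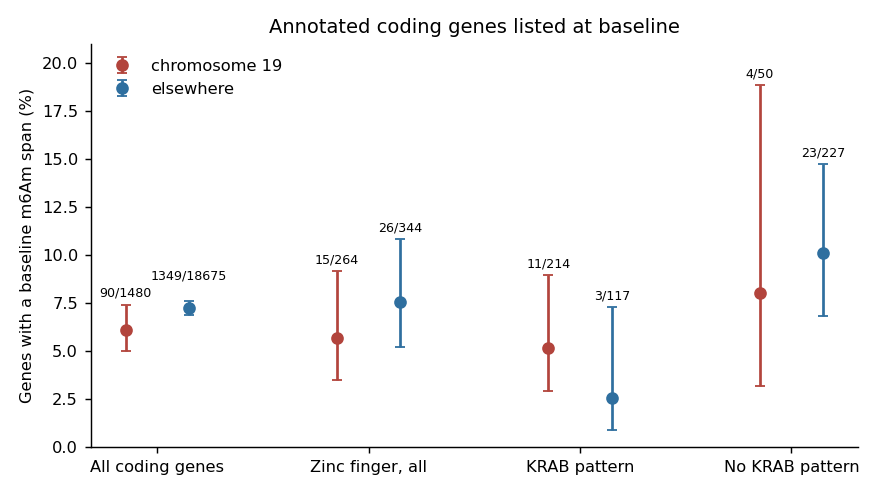
Percent of annotated coding genes with a baseline span under their name, on chromosome 19 (red) and elsewhere (blue). Points are shares, bars are 95% Wilson intervals and the numbers above are listed and annotated genes. KRAB-pattern genes elsewhere had the lowest share, 3 of 117, and genes without the pattern elsewhere the highest, 23 of 227. Those 23 include ZNF212 and ZKSCAN1, classed as having a KRAB domain, and ZBTB8OS, ZFP36L2 and ZFP91-CNTF, which only match the name rule.

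The proteins of listed and unlisted genes were alike in their number of fingers. Counted with the pattern C-2-C-12-H-3 to 5-H, the 14 listed KRAB-pattern genes had a median of 12.5 fingers (4 to 21) and the 317 unlisted ones 12. The 26 listed genes without the pattern that could be translated had 6.5, and the 247 unlisted ones 6. ZNF142 had the highest number among the members, 32, followed by ZNF616 with 21 and ZNF160 with 20. ZNF839 and, in the hypoxia list, ZNF503 were classed as other C2H2 genes, but the pattern found 0 fingers in them. ZNF212 and ZKSCAN1 were counted as KRAB proteins by knowledge of the family, but their KRAB domains are divergent and matched 5 and 3 places of the pattern.

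On chromosome 19 the baseline members fell into 6 groups when genes that start within 1 Mb of the next member were joined. ZNF526, ZNF576 and ZNF296, which are C2H2 genes without KRAB, each formed a group of 1 member. A stretch runs from the first to the last member gene, so unlisted zinc finger genes beside it were not counted. ZNF567 and ZNF790 formed a pair in a stretch of 0.163 Mb with 4 annotated zinc finger genes. ZSCAN22 and ZNF584 formed another with 4. The largest group, of 8 genes over 1.57 Mb (chr19:52392488-53965116), was ZNF649, ZNF432, ZNF616, ZNF480, ZNF611, ZNF468, ZNF160 and ZNF761. All 8 were KRAB genes, as were the 37 zinc finger genes annotated there.

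Of the 39 coding starts of the 8 listed genes, 20 began with A (51.3%, 36.2 to 66.1), beside 53 of 141 starts of the 29 unlisted genes (37.59%, 30.02 to 45.81). The share was higher in the listed genes, and the intervals overlapped. The starts in CCA, GCA or TCA were 25.6% and 22.0%. The letters GCGCGCAG, which were picked after the sequences of ZNF480 and ZNF611 had been seen, were searched on both strands in the 100 bases around each coding start, where they can overlap the GCA of a start. They occurred at ZNF468, ZNF480, ZNF611 and ZNF761 among the 8 listed genes and at 9 of the 29 unlisted ones. ZNF480 and ZNF611 were bound to be among the listed matches, because the letters were taken from them. These counts therefore cannot show whether listed genes carry the letters more often than unlisted ones. On chromosome 19 the letters occurred at 21 of the 214 KRAB-pattern genes (9.81%). Those 21 include every gene with the letters in the stretch of the 8 genes, where the letters were picked. The 9.81% is therefore not a share for KRAB genes in the rest of the chromosome. The letters occurred at 6.84% of the KRAB-pattern genes elsewhere and 4.37% of all 20155 coding genes. Tandem copies of a gene share promoter sequence, so these matches are not independent of each other.

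The spans of the 8 genes differed widely in length. ZNF160 had the shortest, 151 bp at chr19:53606537-53606687, all of it within 1 exon and starting on the TSS. ZNF432 followed with 1873 bp (chr19:52550266-52552138), ZNF649 with 4859 bp (chr19:52403447-52408305), ZNF611 with 6320 bp (chr19:53231988-53238307) and ZNF616 with 9383 bp (chr19:52633809-52643191). The spans of ZNF761 (chr19:53935227-53950492), ZNF468 (chr19:53345249-53360902) and ZNF480 (chr19:52800422-52819150) were 15266, 15654 and 18729 bp long. These 8 lengths cover introns, and the part in exons of the named gene was between 151 bp in ZNF160 and 1293 bp in ZNF468. In 6 of the 8, ZNF468 and ZNF480 excepted, the span held no coding base.

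The 5′ ends of these spans lay on or near annotated starts. ZNF616, ZNF480, ZNF611, ZNF468 and ZNF160 began exactly on one, ZNF761 and ZNF649 began 10 and 12 bp before one, and ZNF432 began 47 bp before one. In ZNF432 this was an inner promoter, 46853 bp from the first annotated start of the gene. The start of ZNF761 is shared in place with the pseudogene TPM3P9 on the same strand, whose annotated start was also 10 bp from the span's end, so the list's name does not settle which transcript carried the mark. The span of ZNF468 held a start of the neighbour ZNF28.

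The other chromosome 19 members showed the same range. ZNF567 (chr19:37178514-37203377, 24864 bp) and ZNF790 (chr19:37314682-37341169, 26488 bp) began exactly on a TSS and touched 5 and 6 exons. ZNF584 had a single-exon span of 270 bp (chr19:58920016-58920285) on an inner start, 7145 bp from the first one. ZNF526 (chr19:42724423-42728630), ZNF576 (chr19:44100544-44103641) and ZNF296 (chr19:45579551-45579846) had spans of 4208, 3098 and 296 bp that began 21, 0 and 110 bp before a TSS.

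Both ZSCAN22 spans were named for a gene that they hardly touched. The first (chr19:58816740-58823541) lay 14819 bp outside ZSCAN22 and began exactly on a TSS of ERVK3-1, a gene derived from an endogenous retrovirus, of which it held 5 annotated starts. The second (chr19:58826375-58838614) held the single start of ZSCAN22 at its far end, 11985 bp from its own 5′ end, and ended on a start of the antisense lncRNA ENSG00000283103, of which it held 8. On place alone, neither span would be counted for ZSCAN22 by its 5′ end. A name in these lists is an assignment to a gene, and 43 of the 44 baseline members overlapped the gene of their name.

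Across all baseline members the genomic length had a median of 5590 bp, beside 1165 bp for the 1608 other spans. The median was 6561 bp on chromosome 19 and 3981 bp elsewhere. By class it was 10596 bp for the 15 KRAB spans and 3280 bp for the 29 others. ZNF148, a Krüppel-type factor that binds GC-rich DNA, had the longest at 61959 bp (chr3:125032240-125094198), and ZNF467 the shortest at 150 bp (chr7:149470419-149470568).

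In exons of the named gene the lengths came close together. The median was 419 bp for members and 353.5 bp for the other spans, and it was 419 bp on chromosome 19 and 403.5 bp elsewhere. Members touched a median of 3 exons and the other spans 2. More than 1 exon was touched by 30 of 43 members (69.8%, 54.9 to 81.4), and by 52.5% (49.96 to 55.05) of the other spans. KRAB spans touched more than 1 exon in 13 of 15 cases. ZNF516 and ZNF169 were extreme, with 340 of 52059 bp and 178 of 33117 bp in exons.

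**Figure D3:**
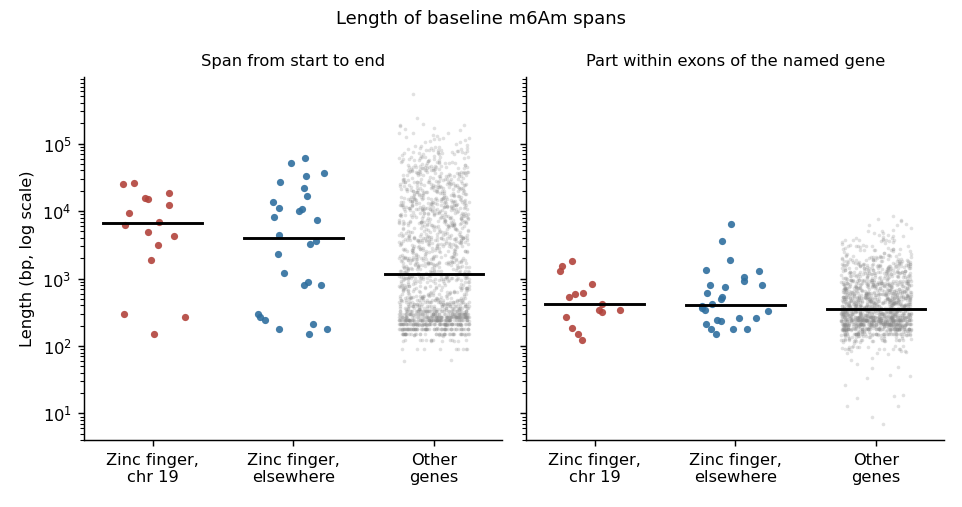
Length of baseline spans in bp on a log axis, from start to end (left) and within exons of the named gene (right). Points are spans and black lines are medians, for members on chromosome 19 (6561 and 419 bp), members elsewhere (3981 and 403.5 bp) and other genes (1165 and 353.5 bp). Spans with no exonic base are left out of the points but not of the medians.

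In holding a start and in lying within 100 bp of one, members resembled the other spans. The share that began exactly on a start was higher on chromosome 19. Of the 43 members in their gene, 40 held an annotated TSS of it (93.0%, 81.4 to 97.6), beside 94.5% of the other spans. The exceptions were ZNF839, ZNF467 and ZNF48, whose spans began 89, 109 and 320 bp after the nearest start. The 5′ end lay within 100 bp of a start in 34 of 43 members (79.1%) and in 82.4% of the other spans, with medians of 12 and 15 bp. It lay exactly on the start in 9 of 15 members on chromosome 19 (interval 35.8 to 80.2%), 7 of 28 elsewhere (interval 12.7 to 43.4%) and 26.7% (24.5 to 29.1) of the other spans. By class this was 11 of 15 KRAB spans and 3 of 17 other C2H2 spans. Of the authors' peak callers, exomePeak works on annotated exons, and its part in where spans begin was not tested.

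**Figure D4:**
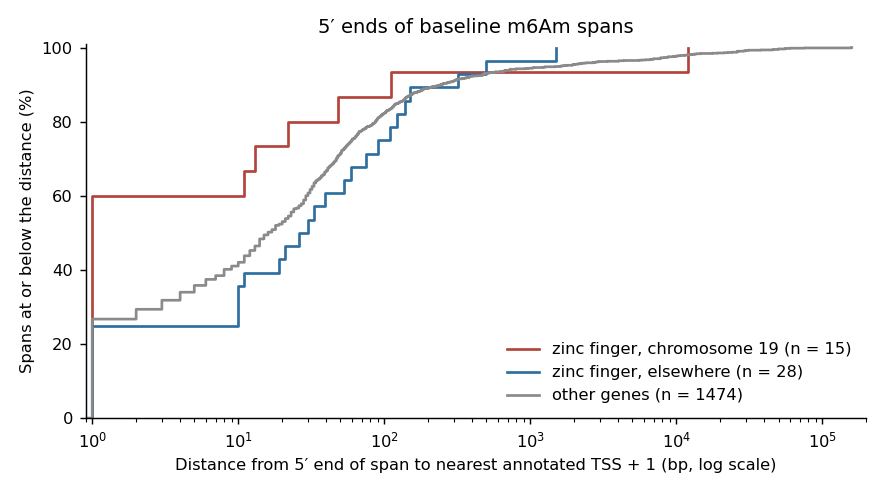
Cumulative percent of baseline spans by the distance from the 5′ end of the span to the nearest annotated TSS of the named gene, in bp plus 1 on a log axis. On chromosome 19, 9 of 15 members begin on the TSS itself, beside 7 of 28 members elsewhere and 26.7% of other genes.

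Coding sequence was reached by 27 of 43 members (62.8%, 47.9 to 75.6) and by 63.7% of the other spans. On chromosome 19 it was 7 of 15, and elsewhere 20 of 28 (71.4%, 52.9 to 84.7). Among the KRAB genes, 4 of 11 on chromosome 19 and 4 of 4 elsewhere (ZNF484, ZNF169, ZNF212 and ZNF783) reached coding sequence. Those 4 genes elsewhere had 72, 75, 238 and 256 coding bp in their spans, which all began within 100 bp of a start.

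The spans of the 43 members held 183 annotated starts of their genes, with the 3 starts in the overlapping spans of ZBTB11 counted for each span. Of these 78 were A, which is 42.6% (35.7 to 49.9), beside 35.0% (33.9 to 36.1) of the 7194 starts in other spans. The 2 intervals overlapped by a narrow margin. On chromosome 19 it was 37 of 76 starts (48.7%, 37.8 to 59.7), where other genes had 32.1% (27.6 to 36.8), and elsewhere 41 of 107 (38.3%, 29.7 to 47.8). Starts of 1 gene are not independent, and genes with many annotated starts such as ZNF219 and ZNF160 weigh more. For A in CCA, GCA or TCA the values were 20.8% (15.5 to 27.2) for members and 16.85% for other spans.

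With 1 start per span, the one nearest its 5′ end, A was found in 21 of 43 members (48.8%) and in 44.8% of the other spans. At least 1 start with A was present in 34 of the 40 members that held a start (85.0%), and in 80.9% of such other spans. All 15 KRAB spans held one. The 6 spans with a start of their gene but none with A were those of ZFP91-CNTF, ZNF280D, ZSCAN22, ZFP36L2, ZSCAN16 and ZSCAN21, so this was true of each of the 3 SCAN spans that overlapped their gene.

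**Figure D5:**
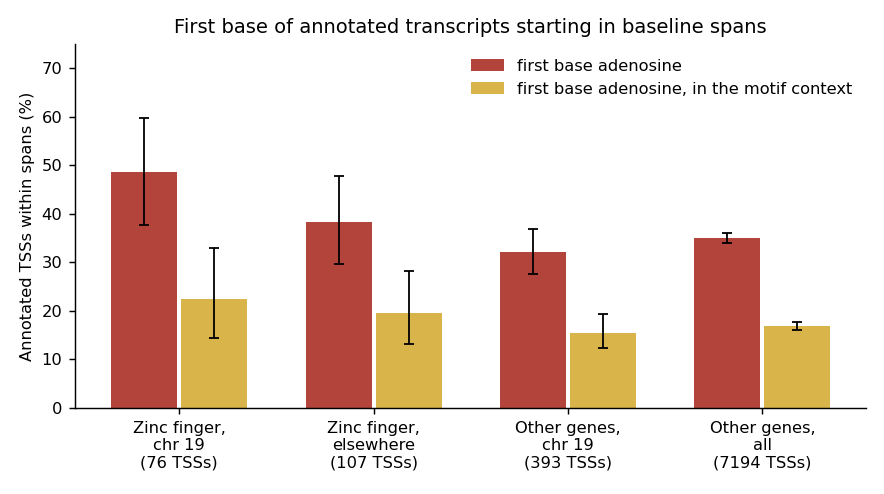
Percent of annotated TSSs within baseline spans whose first base is adenosine (red) and whose adenosine stands in CCA, GCA or TCA (yellow). Bars are shares and whiskers 95% Wilson intervals, for members on chromosome 19 (48.7% and 22.4%), members elsewhere (38.3% and 19.6%), other genes on chromosome 19 (32.1% and 15.5%) and other genes on all chromosomes (35.0% and 16.8%).

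The listed genes were also set against the unlisted ones over all coding starts, whether inside a span or not. A was the first base at 45.3% (38.0 to 52.8) of the 170 starts of 41 listed zinc finger genes. At the 567 unlisted zinc finger genes it was 726 of 2269 starts (interval 30.1 to 33.9%), and at unlisted KRAB-pattern genes 30.2% (27.8 to 32.8). Outside the family, listed and unlisted genes had 36.9% and 36.2%. Within the zinc finger family the intervals of listed and unlisted genes did not overlap. These intervals count every start as independent, but starts of the same gene are not. The lack of overlap therefore does not settle whether listed and unlisted zinc finger genes differ, and no test of that difference was made.

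The 300 bases around the start (250 before it) had a median GC content of 64.3% in members and 63.7% in other spans. The ratio of observed to expected CpG was 0.842 and 0.830. Neither value set members apart. ZNF219 had the lowest CpG ratio, 0.209, and ZNF516 the highest GC content, 81.7%.

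Neighbouring genes often began close by. A gene on the opposite strand started within 500 bp upstream of the start in 12 of 43 members (27.9%, 16.8 to 42.7) and in 31.1% of other spans. Such partners were BCS1L for ZNF142, DEDD2 for ZNF526, IRGQ for ZNF576, ZNF345 for ZNF790 and GAS5 for ZBTB37. ZNF345 is itself a zinc finger gene. The TSS of another gene lay inside 16 of 43 member spans (37.2%, 24.4 to 52.1) and inside 25.17% (23.02 to 27.45) of other spans. These intervals overlapped. Member spans were also longer, with a median of 5590 bp beside 1165 bp, and the part of length in this count was not tested. The span of ZBTB37 also held the start of GAS5, a lncRNA that hosts snoRNAs. As the lists give no strand, a mark on the partner's RNA cannot be told apart from one on the named gene.

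Some zinc finger genes are close copies of each other, and reads could then fit several of them. A stretch of 50 bases in the exonic part of the span recurred in a transcript of a gene elsewhere for 7 of 42 members (16.7%, 8.32 to 30.6) and for 13.4% of other spans. On chromosome 19 these were ZNF567, ZNF611, ZNF468 and ZNF761. In ZNF468 2.84% of the stretches recurred, in 11 genes that all had zinc finger names. In the baseline span of ZNF611 7.48% recurred, in ZNF578 and ZNF808, and none did in its hypoxia span, which is 31 bp shorter. In ZNF761 18.1% recurred, in 41 genes, none of them with a zinc finger name of this rule. These spans are uncertain to that extent. ZNF567, ZKSCAN1 and ZSCAN21 also shared such stretches only with genes outside the family, and ZBTB8OS shared them with 28 genes, 1 of which had a zinc finger name.

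The heat shock list held ZNF142 and ZBTB11, and both were also in the baseline list. Under the same gene name, 3 of the 44 baseline member spans overlapped a heat shock span, where 2.48% of all 1652 did. The 3 were ZNF142 and both spans of ZBTB11, which overlap each other. With 3 spans of 2 genes no difference from the background can be read. ZNF142 is a protein of many fingers, and ZBTB11 is a BTB protein that acts as a transcriptional regulator.

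In ZNF142 the heat shock span (chr2:219524115-219524355, 241 bp) ended on the same base as the baseline span (chr2:219524143-219524355, 213 bp) and extended 28 bp further into the gene. Both lay within 1 exon and began 9 bp before the CCA start shown above. The span's other end was 44 bp from a start of BCS1L at baseline, and 104 of its 213 bp were also exonic in BCS1L, an assembly factor of respiratory complex III.

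In ZBTB11 the heat shock span (chr3:101395274-101396262, 989 bp) shared its downstream end with the longer baseline span (chr3:101395274-101396471, 1198 bp) and stopped short of it upstream, at base 101396262. It contained the whole shorter baseline span (chr3:101395749-101395988, 240 bp). The antisense lncRNA ZBTB11-AS1 is annotated over the full length of each of these spans, with a start 6 bp from the downstream end of the heat shock and longer baseline spans and 481 bp from that of the shorter one.

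The hypoxia list held 14 members among its 390 spans, which is 3.59% (2.15 to 5.93), beside 2.66% (1.99 to 3.56) at baseline and 2.70% under heat shock. These shares overlapped. The 14 were 4 KRAB genes, ZSCAN16, 6 other C2H2 genes and 3 names that only match the pattern. On chromosome 19 lay 5 of the 14, which is 35.7% as in the baseline list, while that chromosome held 12 of all 390 hypoxia spans. So 5 of the 12 hypoxia spans on chromosome 19 were named for zinc finger genes, beside 16 of the 100 baseline spans there. With so few hypoxia spans on this chromosome, no difference can be read from these counts.

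Under the same name, 5 of the 44 baseline members overlapped a hypoxia span, where 13.1% of all 1652 did. The 5 were ZNF48, ZBTB8OS, ZNF611, ZNF767P and ZSCAN16, and their share, 11.36% (4.95 to 23.98), was near the background. Seen from the other side, 5 of 14 hypoxia members (35.7%, 16.3 to 61.2) had a baseline span of the same name, and 54.6% (49.6 to 59.5) of all hypoxia spans did.

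ZNF611 was the only KRAB gene in 2 lists. Its hypoxia span (chr19:53232019-53238307, 6289 bp) began on the same GCA start as the baseline span and was 31 bp shorter at the downstream end. ZNF767P likewise kept its upstream end, and its hypoxia span (chr7:149318630-149321881) was 28 bp shorter than the baseline span (chr7:149318602-149321881). The hypoxia span of ZBTB8OS (chr1:33087496-33116191, 28696 bp) kept the upstream end and ran further downstream than the baseline span (chr1:33099656-33116191, 16536 bp). In ZNF48 the end at base 30390759 was shared, and the hypoxia span (chr16:30389837-30390759) began 118 bp further upstream than the baseline span (chr16:30389955-30390759).

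For some of these spans the 5′ end lay away from the nearest start of the gene, or the name differed between lists. No exon of ZNF48 overlapped its spans, which lay 320 and 202 bp after the nearest ZNF48 start, while exons of SEPTIN1 on the other strand took 237 and 266 bp of them. Both spans of ZSCAN16 (chr6:28090879-28104679 at baseline and chr6:28090860-28104735 in hypoxia) began 1508 and 1527 bp before the ZSCAN16 start nearest their 5′ end. Each held that start and touched 4 exons of ZSCAN16, with 1279 exonic and 1044 coding bp. Their far ends lay 54 and 110 bp from a start of the antisense gene ZSCAN16-AS1. One identical span, chr11:58346587-58346885 of 299 bp, was named ZFP91-CNTF at baseline and ZFP91 in hypoxia. It began 51 bp after a ZFP91 start and lay wholly within 1 exon of ZFP91. ZFP91 is a zinc finger ubiquitin ligase.

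The other 8 hypoxia members had no overlapping baseline member. The KRAB genes among them were ZNF566 (chr19:36940730-36980463, 39734 bp), ZNF791 (chr19:12721732-12734527, 12796 bp) and ZNF749 (chr19:57946693-57946872, 180 bp), each beginning exactly on a TSS. ZNF566 and ZNF791 also have a partner on the opposite strand within 500 bp, ZNF566-AS1 and the zinc finger gene ZNF490. ZNF507 (chr19:32836514-32843794), a C2H2 gene without KRAB, began 2 bp before a TCA start.

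The remaining ones lay elsewhere and were mostly short. ZNF503, a corepressor of development, had 269 bp (chr10:77161384-77161652) that began 130 bp before a CCA start, and the antisense ZNF503-AS2 was exonic over the whole length. ZNF385B had 360 bp (chr2:180725873-180726232) that began 107 bp after its start. The 210 bp span of ZNF644 (chr1:91403249-91403458) was wholly coding and lay 84371 bp from the first start of the gene. The nearest annotated ZNF644 start was 2373 bp downstream of the span's 5′ end and outside the span. The span named ZNF204P (chr6:27327984-27343123) lay 351 bp outside that pseudogene, held the start of ZNF391 and had its end 67 bp from a start of the lncRNA ENSG00000291112.

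In the hypoxia list 9 of the 13 members in their gene held a start of it (69.2%, 42.4 to 87.3), beside 95.3% (92.6 to 97.1) of the 343 other hypoxia spans and 93.0% (81.4 to 97.6) of members at baseline. The interval overlapped that of the baseline members, and the differences were not tested. The 4 without a start were ZNF48, ZNF644, ZFP91 and ZNF385B, and each was a C2H2 gene outside chromosome 19. The ZFP91 span is the one that held a start of its gene at baseline, under the name ZFP91-CNTF. All 5 hypoxia members on chromosome 19 held a start.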

How the data were processed

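HEK293T cells (wild-type, heat-shocked, hypoxic, untreated and PCIF1-KO) gave 34 libraries in 21 groups of 1 or 2. The authors trimmed reads (Trim Galore 0.6.6, per the submitters' processing notes, which also name Cufflinks and hg19), aligned them with HISAT2, called peaks with exomePeak on RefSeq genes and with MACS2 on the genome, kept those that overlapped an m7G-IP peak and lost signal with FTO, and named genes with homer. They deposited 3 lists of spans with a gene name. How replicates were combined is not given in the sources used here. The stress lists also hold the authors' own ratio of stressed to untreated cells in a column headed log2 fold change that has no negative value. It was not used, and the direction of change is not analysed here.

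Starts and ends of the deposited spans were compared with Gencode release 44 lifted to GRCh37 and the genome of that build. Of 1652 baseline starts, 174 were the first base of an annotated exon as written and 3 after a shift of 1 base, so positions were read as 1-based. Names were matched by symbol, older symbols included, for 44, 2 and 14 members and for 1566, 65 and 369 of all spans. Proteins were translated from Gencode coding sequences, since no RefSeq protein table was used here, and the KRAB pattern gave no gene a match of 10 places. Every member could be named, and full coordinates were given to members of stress lists or on chromosome 19, the longest and shortest spans and those outside their gene. The members and lists were chosen with earlier results of these data known. Functions were tested on simulated data. Matplotlib 3.10.9, samtools 1.23.1, pyfaidx 0.9.0.4 and Python 3.11.15 were used.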

Additional observations from a re-analysis of the deposited data

How the results depend on the processing

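Of 28 alternative settings, 25 left the value within its interval or, for counts, within 1.5 times. The 3 others were these. Among baseline members of at most 1000 bp, 23.1% lay on chromosome 19. With the start nearest the 5′ end of each span in place of all starts, 30.2% of starts stood in CCA, GCA or TCA. Members had a median length of 419 bp in place of 5590 bp when introns were left out. Counting C2H2 genes only left 40, 2 and 11 members in the lists, with ZNF839 and ZNF503 kept by their class. Counting spans with a start of a coding zinc finger gene, whatever their name, gave 39, 2 and 10. Counting any overlap with a hypoxia span, a setting chosen after seeing the data as was the chromosome 19 share of C2H2 genes only (40.0%), added the ZFP91-CNTF span and gave 6 in place of 5. No paired analysis was possible because each list holds 1 set of spans per condition. Depth is unknown, so a gene missing from a list may be unmethylated, unexpressed or below detection, and these cannot be told apart here.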
